A study of Homo sapiens with 9 samples.

Results

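The state of MDA-MB-231 cells at the end of a pharmacological block of splicing was described gene by gene, by setting the 3 libraries of cells given 10 nM pladienolide B (PdB) for 16 h against the 3 libraries of cells given its vehicle, DMSO. These are 6 of the 9 libraries of the series, taken by their labels, and all genes of the count table were considered. The other 3 libraries, from cells collected 24 h after the end of PdB, entered the fit for the estimate of the spread and are not described here. MDA-MB-231 is an established human line of triple-negative breast cancer, a tumour class without oestrogen receptor, progesterone receptor or amplified HER2. All groups are the same unmodified line in the same medium with serum, so the comparison covers a single line, dose and time point. The study set out to find the genes that respond to PdB and those that still differ once the drug is gone.

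PdB binds SF3B1, a subunit of the U2 small nuclear ribonucleoprotein. That particle marks the branch site of an intron before the intron is cut out. When it fails, introns can stay in the RNA or exons can be skipped, and such transcripts are often kept in the nucleus or degraded. A transcript with many introns offers many places for this to happen, whereas a gene without introns needs no splicing at all.

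The labelled line was checked against its markers. No counts of ESR1, the oestrogen receptor gene, were found in any of the 6 libraries, and PGR, the progesterone receptor gene, had at most 4. All 8 markers expected present were tested, and 4 of them rose and 4 fell. The mesenchymal gene VIM stood at 2871 ± 51.8 to 2162 ± 135 CPM and the receptor kinase gene AXL at 2012 ± 50.02 to 1302 ± 4.5 CPM. FOSL1, one of the 4 that rose, stood at 727 ± 34 to 2020 ± 106 CPM. Of the 8 markers expected low, KRT19 (255, 252 and 297 CPM in DMSO) and ERBB2 (102, 106 and 109.6 CPM) were clearly present and both fell, to 72.7 ± 14.2 and 51.7 ± 2.3 CPM. GATA3, of the same markers, rose from 13.5 ± 0.92 to 45.9 ± 1.4 CPM. Of 8 fibroblast markers 5 passed the filter on low counts, and their summed level was 15.1 to 21.3 CPM in DMSO and 6.38 to 12.1 CPM in PdB. Of 6 endothelial markers 4 passed it, with a summed level of 4.74 to 5.61 CPM in DMSO and 0.959 to 1.35 CPM in PdB. The others, DCN, FAP, THY1, CDH5 and CLDN5, had at most 8 counts in a library. The DMSO libraries held between 61734210 and 67047079 counts and the PdB libraries between 56389689 and 64022867. Levels are counts scaled to library size (CPM), with TMM factors and not corrected for gene length, given per library or as mean ± SD with n = 3 libraries per group. Log2 changes are PdB against DMSO ± SE. A gene was called when edgeR's quasi-likelihood test, adjusted by Benjamini-Hochberg over all genes tested, gave a value below 0.05, and "rose" and "fell" are used of such genes. The labels do not say whether replicates came from separate cultures, so these tests measure the spread between libraries, which may be technical.

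Most genes tested differed in relative level between PdB and DMSO. Counts are shares of a library and do not give RNA per cell, so rises and falls are relative to the other genes. Of 20812 genes tested, 70.1% were called: 32% higher and 38.2% lower in PdB. Among the 14213 nuclear protein-coding genes 32.4% were higher and 46.6% lower (median log2 change -0.23), which is the background for the gene lists below. The median log2 change over all genes was -0.11 (-0.31 when libraries were scaled by their totals, 0.039 with upper-quartile factors). The split of calls moved too: 5579 higher and 9098 lower with library totals, 7510 and 7060 with upper-quartile factors. At least 4-fold changes were found in 1696 genes that rose and 1701 that fell. At least 8-fold changes were found in 784 and 513. In 72.5% of the genes tested the 3 PdB libraries lay all above or all below the 3 DMSO libraries.

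Among genes averaging at least 100 CPM in the higher group, 7 of the 10 largest falls were in genes of DNA replication and cell division and 6 of the 10 largest rises in zinc-finger genes. The falls were in TOP2A, KIF2C, CENPE, ITGA2, BUB1B, CDC20, RASA1, NCAPH, EMP1 and PCNA, with log2 changes from -4.28 to -3.10. The rises were in ZNF844, PER1, ZNF699, ZNF614, JMY, ZNF263, GADD45B, ZNF317, ZNF668 and WDR81, with changes from 3.16 to 3.74. ZNF844, a zinc-finger gene of chromosome 19 (ENSG00000223547.10, chromosome 19, 12064699 to 12081565, forward strand), had 8.83, 9.32 and 10.1 CPM in DMSO and 131, 126 and 120.3 CPM in PdB. PER1, a repressor of the circadian clock, had 10.4, 10.1 and 9.93 CPM in DMSO and 145, 145 and 114 CPM in PdB. The 3 PdB libraries of both genes lay more than 10-fold above the highest DMSO library. The 10 largest losses in mean CPM included the 4 genes of the cytoskeleton described here. SPTBN1, a spectrin beneath the plasma membrane, fell from 796 ± 48.7 to 189 ± 21.8 CPM. FLNC, a filamin that crosslinks actin, fell from 1027 ± 38.7 to 377 ± 23.6 CPM. PLEC, the linker plectin, fell from 2379.7 ± 177 to 1162 ± 68.7 CPM and MYH9, non-muscle myosin, from 2378 ± 131 to 1329 ± 52.8 CPM. The 10 largest gains in mean CPM were in HSPA5, CCN1, EEF1A1 and 7 mitochondrially encoded genes, led by MT-RNR2, the large mitochondrial ribosomal RNA, with 3517, 3597 and 3466 CPM in DMSO and 12354, 11156 and 9940.1 CPM in PdB.

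**Figure D1:**
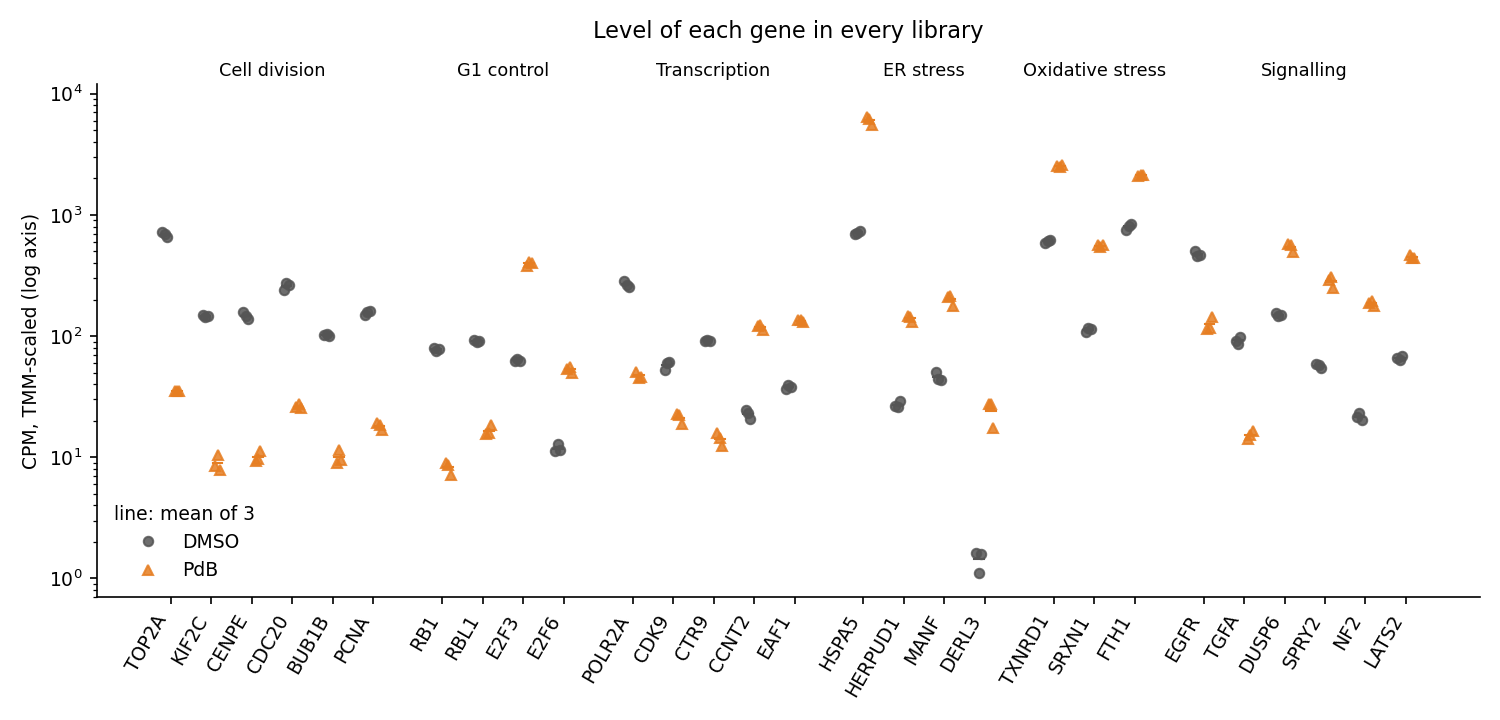
Level of 28 genes in each library, in TMM-scaled CPM on a log axis, with DMSO as circles, PdB as triangles and a line at the mean of 3 libraries. For every gene shown the 3 PdB libraries lie on the same side of the 3 DMSO libraries, from TOP2A (at most 35.4 CPM in PdB) to HSPA5 (at least 5536 CPM in PdB).

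Genes that build the mitotic machine were lower in PdB. Kinetochores are the protein plates on centromeres to which spindle fibres attach, and the spindle checkpoint holds cells in mitosis until every one is attached. Of 46 genes of both, 36 fell and 5 rose (median log2 change -1.30). CENPE, the motor that carries chromosomes to the spindle equator (ENSG00000138778.13, chromosome 4, 103105806 to 103198409, reverse strand), had 158, 146 and 138 CPM in DMSO and 9.24, 9.61 and 11.2 CPM in PdB, a log2 change of -3.88 ± 0.076 (edgeR adjusted p = 2.3e-17). BUB1B, a checkpoint kinase relative that restrains the anaphase-promoting complex, had 102, 103 and 99.6 CPM in DMSO and 9.03, 11.4 and 9.45 CPM in PdB. In both genes every PdB library lay more than 8-fold below the lowest DMSO library. BUB1, another checkpoint kinase, fell from 204 ± 3.8 to 25.5 ± 3.5 CPM, and CDC20, the activator that the checkpoint holds back, fell from 259 ± 18 to 26.1 ± 0.99 CPM. SPC24, a subunit of the NDC80 complex that grips microtubules, fell from 50.3 ± 0.6 to 5.16 ± 0.32 CPM. CENPA, the histone that marks centromeres, fell less, with 32.2, 36.4 and 36.5 CPM in DMSO and 28.7, 26.8 and 24.7 CPM in PdB. MIS12, a platform between centromere and microtubule, rose instead, with 31, 31.9 and 27.6 CPM in DMSO and 88.1, 94.4 and 81.6 CPM in PdB. CENPF, a large kinetochore protein, did not pass the test: its levels were 525, 469 and 467 CPM in DMSO and 437, 463 and 574 CPM in PdB, and the groups overlapped.

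The motors and scaffolds that act with kinetochores were also mostly lower. Of 30 kinesins, 26 fell and 2 rose (median -1.29). KIF11, which pushes spindle poles apart, fell from 196 ± 11.9 to 26.7 ± 0.51 CPM, and KIF14, which acts in the last step of division, from 91.1 ± 4.5 to 11.6 ± 0.98 CPM. KIF18B, which trims growing microtubule ends, rose from 130.5 ± 5.3 to 195 ± 12.3 CPM. Of 20 genes of cytokinesis, the splitting of the cell body, 16 fell and 3 rose (median -1.42). The kinase CIT fell from 168 ± 11.4 to 28.1 ± 4.1 CPM and ECT2, the exchange factor that switches on RHOA at the cleavage furrow, from 194 ± 9.5 to 34.5 ± 1.1 CPM, while RHOA itself rose from 596 ± 0.81 to 965 ± 34.7 CPM. Of 45 centrosome and centriole genes, 32 fell and 8 rose (median -1.03). The scaffold CEP192 changed by -2.68 ± 0.1, and PLK4, the kinase that starts centriole duplication, by 0.38 ± 0.061. Of 30 genes of condensin, cohesin and the SMC5/6 complex, which fold and hold chromosomes, 19 fell and 4 rose (median -1.03). The condensin subunits NCAPG and NCAPH fell from 174 ± 4.6 to 24.9 ± 0.58 CPM and from 101 ± 3.1 to 11.1 ± 0.47 CPM. NSMCE3, an SMC5/6 subunit, rose from 19.2 ± 1.4 to 84.2 ± 6.6 CPM. In bulk RNA, fewer cells in mitosis and less RNA per such cell cannot be told apart. The lists of cell division were not matched to other genes by intron number, which is that of the longest annotated transcript. Among all protein-coding genes with over 20 introns, 64.1% to 75.6% fell over 4 classes of mean intron length (medians -0.52 to -1.06). With 11 to 20 introns, 52.9% to 63.9% fell. How far the falls in these lists go with intron number was not tested.

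The genes that decide entry into the cell cycle moved in both directions. Of 30 genes of G1 control, 20 fell and 7 rose (median -0.82). The retinoblastoma proteins bind E2F factors and keep S-phase genes off. RB1 (ENSG00000139687.16, chromosome 13, 48303726 to 48599436, forward strand) had 79.2, 75.2 and 78.8 CPM in DMSO and 8.99, 8.69 and 7.11 CPM in PdB, and RBL1, its relative p107, had 93.5, 88.9 and 91.5 CPM in DMSO and 15.6, 15.9 and 18.3 CPM in PdB. The E2F factors themselves were split. E2F3, an activator, had 62, 64.5 and 62.1 CPM in DMSO and 380.0, 412 and 403 CPM in PdB, a log2 change of 2.66 ± 0.05 (edgeR adjusted p = 2.1e-17). E2F6, a repressor, rose from 11.8 ± 0.89 to 53 ± 3.2 CPM, and E2F8, another repressor, fell from 46 ± 3.4 to 23.2 ± 3.3 CPM. E2F7 and FOXM1, a driver of mitotic genes, did not pass the test. Their levels were 119.7 ± 6.0 to 110.3 ± 6.9 CPM and 316 ± 14.1 to 309 ± 12.6 CPM, and the sign of both changes depended on the scaling (0.031 for E2F7 and 0.12 for FOXM1 with upper-quartile factors, and -0.31 and -0.23 when scaled by library totals). Among the cyclins, CCND3 fell from 149 ± 9.8 to 81.2 ± 9.3 CPM and CCNE1 from 16.7 ± 1.6 to 12.4 ± 1.7 CPM, while CCND1 changed by 0.19 ± 0.047, or by -0.0080 with library totals. Of the kinase inhibitors, CDKN1B rose from 38.8 ± 1.8 to 57.4 ± 4.8 CPM, CDKN2C fell from 57.1 ± 1.2 to 33.6 ± 1.3 CPM and CDKN1C from 4.17 ± 0.18 to 1.41 ± 0.27 CPM. PCNA, the clamp of replicating polymerases, had 150.2, 157 and 159.8 CPM in DMSO and 19.3, 18.4 and 16.8 CPM in PdB. Of 31 genes of nucleotide synthesis, 21 fell and 8 rose (median -0.51). RRM2, the S-phase subunit of ribonucleotide reductase, fell from 308 ± 8.3 to 82.1 ± 2.2 CPM and its partner RRM1 from 259.9 ± 3.4 to 196 ± 1.5 CPM. The adenylosuccinate synthase ADSS2 fell from 89.3 ± 3.9 to 12.7 ± 0.61 CPM. NME2, a nucleoside diphosphate kinase, rose from 371 ± 21.3 to 724 ± 3.2 CPM.

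Genes of the transcription machinery moved in both directions. Positive elongation factor P-TEFb, a pair of CDK9 and a cyclin T, frees RNA polymerase II from its pause near the start of genes, and HEXIM1 holds it inactive. POLR2A, the catalytic subunit of the polymerase (ENSG00000181222.19, chromosome 17, 7484366 to 7514616, forward strand), had 285, 262 and 254 CPM in DMSO and 50.6, 45.3 and 46.2 CPM in PdB, a log2 change of -2.49 ± 0.056 (edgeR adjusted p = 8.4e-17). CDK9 had 52.5, 60.4 and 60.7 CPM in DMSO and 22.5, 22.2 and 18.6 CPM in PdB. Its cyclins went the other way: CCNT2 had 24.6, 23.2 and 20.7 CPM in DMSO and 121, 124 and 112 CPM in PdB, and CCNT1 rose from 49.2 ± 3.6 to 170.0 ± 10.1 CPM. HEXIM1 rose from 106 ± 3.2 to 172 ± 12.4 CPM. In the super elongation complex, EAF1 rose from 37.9 ± 1.3 to 134 ± 3.2 CPM and ELL2 from 75.6 ± 1.7 to 108 ± 0.96 CPM, while the scaffold AFF1 fell from 79.4 ± 2.1 to 26.8 ± 2.3 CPM. CTR9, a subunit of the PAF complex that travels with the polymerase, fell from 92.1 ± 1.0 to 14.1 ± 1.7 CPM. Over the whole list of 36 elongation genes, 15 rose and 18 fell (median -0.37, or 0.00037 when genes averaging under 50 counts were left out). Of 44 subunits of the polymerase and of Mediator, its bridge to activators, 16 rose and 20 fell, with a median of -0.092 that was 0.0044 with RLE factors. These shares, 36.4% and 45.5%, lay near those of all nuclear protein-coding genes (32.4% higher and 46.6% lower). MED26 rose from 18.5 ± 1.4 to 75.9 ± 2.8 CPM and MED29 fell from 50.8 ± 0.84 to 9.43 ± 0.6 CPM.

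Steps between transcription and translation showed the same mixture. Of 22 genes of 3' end cleavage and polyadenylation, 14 fell and 8 rose (median -0.41). PCF11, which couples cleavage to termination, rose from 49.1 ± 4.6 to 149 ± 10.1 CPM and the RNA kinase CLP1 from 15 ± 1.1 to 68.4 ± 6.2 CPM. The cleavage factors CPSF4 and CPSF6 fell from 52.3 ± 3.1 to 9.12 ± 2.1 CPM and from 101 ± 2.1 to 29.8 ± 2.8 CPM. Of 22 mRNA export genes, 11 rose and 8 fell (median 0.11, -0.084 with library totals), with ZC3H11A rising from 256 ± 14.2 to 864 ± 71.5 CPM and THOC2, a subunit of the THO complex, falling from 119 ± 6.3 to 52.2 ± 1.6 CPM. Of the 9 genes of the exon junction complex, which splicing leaves on mRNA, 5 rose and 3 fell. The core members CASC3 and RBM8A changed by -1.19 ± 0.058 and -0.65 ± 0.053, and the peripheral members SAP18 and PNN by 1.53 ± 0.056 and 1.17 ± 0.055. Of 12 proteins of the minor spliceosome, which removes a rare class of introns, 6 rose and 2 fell (median 0.28). RBM48 rose from 10.03 ± 0.27 to 48.9 ± 3.8 CPM. Of 43 RNA decay genes, 16 rose and 19 fell (median 0.052, -0.14 with library totals). The shares, 37.2% and 44.2%, lay near those of all nuclear protein-coding genes (32.4% higher and 46.6% lower). ZFP36L2, which recruits deadenylases to AU-rich RNAs, rose from 56.8 ± 6.8 to 224 ± 11.4 CPM, and PARN, a poly(A) nuclease, fell from 25.1 ± 1.7 to 5.97 ± 0.93 CPM.

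Genes of chromatin regulators moved in both directions. The COMPASS methyltransferases SETD1A and SETD1B, which mark active promoters, rose, SETD1A from 64 ± 3.3 to 381 ± 12.4 CPM and SETD1B from 51.3 ± 2.6 to 314 ± 4.5 CPM. SETD2, which marks transcribed gene bodies, rose from 116 ± 9.2 to 351 ± 6.7 CPM. KDM1A, a demethylase of promoter marks, fell from 121 ± 4.0 to 37 ± 1.5 CPM. Over 43 histone methyltransferases and demethylases, 22 rose and 19 fell (median 0.23). EZH2, the catalytic subunit of Polycomb complex 2, had 139, 145 and 134 CPM in DMSO and 26.9, 26.8 and 29.5 CPM in PdB. CBX8, a reader in Polycomb complex 1, went the other way with 12.6, 13.6 and 14.6 CPM in DMSO and 99.7, 99.8 and 88.9 CPM in PdB. The groups of both genes were separated by more than 4-fold. DNMT1, which copies DNA methylation after replication, fell from 513 ± 20.5 to 178 ± 9.2 CPM, and UHRF1, which guides it, fell from 293 ± 12.7 to 51.7 ± 3.1 CPM. TET3, which oxidises methylated cytosine, rose from 26.5 ± 1.8 to 99.2 ± 7.9 CPM. The 35 genes of DNA methylation and Polycomb held 17 that rose and 17 that fell. Among 36 remodelling genes 21 fell and 13 rose (median -0.28). SMARCA4 and SMARCA2, the alternative ATPases of SWI/SNF, fell from 280.3 ± 5.7 to 72.1 ± 6.8 CPM and from 66.8 ± 4.9 to 11.3 ± 1.7 CPM, while ARID1A, the subunit that targets the complex, rose from 118 ± 10.7 to 254 ± 34.3 CPM and CHD2 from 71.5 ± 4.3 to 197 ± 5.3 CPM.

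Folding genes of the endoplasmic reticulum (ER) were higher. Secreted and membrane proteins fold in this compartment, and unfolded protein there switches on chaperone genes through the unfolded protein response. HSPA5, its main chaperone, had 699.8, 709 and 739.6 CPM in DMSO and 6449.6, 6173 and 5536 CPM in PdB, a log2 change of 3.08 ± 0.052. Of 37 further folding enzymes and chaperones, 24 rose and 7 fell (median 0.31). MANF, a secreted stress factor, had 50.2, 44 and 43.1 CPM in DMSO and 211, 215 and 177 CPM in PdB. CALR and HSP90B1, abundant lectin and HSP90-type chaperones, rose, CALR from 1082 ± 36.7 to 1908 ± 16 CPM and HSP90B1 from 767 ± 14.9 to 1210.4 ± 46.7 CPM. SDF2L1, a cofactor of HSPA5, rose from 17.5 ± 0.53 to 44.8 ± 6.4 CPM. The signal peptidase subunit SPCS3 fell from 103 ± 2.1 to 46 ± 4.9 CPM. The 26 genes of ER-associated degradation, which pulls misfolded proteins out for destruction, held 9 that rose and 13 that fell (median -0.20). DERL3, a membrane protein of that route, had 1.63, 1.11 and 1.59 CPM in DMSO and 27.6, 27.4 and 17.4 CPM in PdB, a log2 change of 4.06 ± 0.19 (edgeR adjusted p = 1.3e-12). HERPUD1, which organises the same machinery, had 26.2, 25.8 and 29.1 CPM in DMSO and 146, 144 and 131 CPM in PdB. Its partner SEL1L fell from 113 ± 6.6 to 64 ± 2.8 CPM.

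ER chaperone promoters are known for the ER stress element, CCAAT and CCACG with 9 bases of any kind between them, which is read by ATF6 with NF-Y. RefSeq promoters of 300 bases (250 before the start site and 50 after it, GRCh38.p14) were searched for it on both strands. It was found in 22 of 27305 promoters (0.0806%). Of the ER folding list, 33 of 37 genes had a promoter in the table and 6 of those held the element. Of the 26 ER-associated degradation genes, 20 had a promoter and none of these held it. Of the 86 genes fixed by name, 68 had a promoter and 3 held it: HSPA5, CALR and HSP90B1. The element was first described in such genes, so its presence among them is background and not a result of these data. Of all 13 protein-coding genes tested that hold the element, 6 rose and 5 fell (median -0.17, beside -0.24 in those without it). The windows of 5 of the 6 that rose, HSPA5 and 4 genes of the folding list, are shown so that their changes can be read beside it. They are written on the strand of the gene, and capitals mark the element (CGTGG and ATTGG where it lies on the opposite strand).
HSPA5, chr9:125241371-125241429, reverse strand: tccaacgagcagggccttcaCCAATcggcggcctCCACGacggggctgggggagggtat
HSP90B1, chr12:103930196-103930254, forward strand: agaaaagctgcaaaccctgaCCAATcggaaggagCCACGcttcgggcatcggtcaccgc
HSP90B1, chr12:103930301-103930359, forward strand: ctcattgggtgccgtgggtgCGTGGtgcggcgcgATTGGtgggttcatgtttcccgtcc
CALR, chr19:12938364-12938422, forward strand: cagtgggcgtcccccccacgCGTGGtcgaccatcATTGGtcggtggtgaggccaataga
CRELD2, chr22:49918534-49918592, forward strand: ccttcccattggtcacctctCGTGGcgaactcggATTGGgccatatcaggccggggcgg
PDIA6, chr2:10812833-10812891, reverse strand: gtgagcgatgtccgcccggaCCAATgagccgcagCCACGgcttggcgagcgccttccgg
HSP90B1 holds the element on each strand. The log2 changes of these 5 genes ran from 0.56 for PDIA6, a disulfide isomerase, through 0.66 for HSP90B1, 0.82 for CALR and 1.33 for CRELD2, a calcium-binding ER protein, to 3.08 for HSPA5. In HSPA5 the element ended 47 bases before the start site and in CALR 206 bases before it. The other carriers in the list were SERP1, which fell with a log2 change of -0.57 ± 0.051, and ERO1B, which was not called (-0.22 ± 0.19, edgeR adjusted p = 0.29). MANF, HERPUD1, SDF2L1 and DERL3 rose, and where a promoter was found for them these letters were not in the window.

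Genes against oxidants were higher as well. The thioredoxin and peroxiredoxin systems reduce oxidised proteins, and NFE2L2 (NRF2) is the factor that induces many of their genes. TXNRD1, thioredoxin reductase, had 582, 610.1 and 616 CPM in DMSO and 2549, 2469.7 and 2579 CPM in PdB. SRXN1, which restores peroxiredoxins, had 108, 116 and 114 CPM in DMSO and 565, 548 and 561 CPM in PdB. Their groups were narrow and about 4-fold or more apart. FTH1, the iron-storing ferritin heavy chain, rose from 804 ± 44.5 to 2120.1 ± 12.9 CPM, and HMOX1, haem oxygenase, from 7.53 ± 0.95 to 21.9 ± 1.3 CPM. NFE2L2, named after its value was seen, rose from 104 ± 4.9 to 412 ± 12.4 CPM. TXNIP, an inhibitor of thioredoxin outside the list, rose from 244 ± 11.6 to 766 ± 31.7 CPM. Of the 28 genes of the list, 20 rose and 5 fell (median 0.59). GCLM, a subunit of glutathione synthesis, did not pass the test with 61.2, 60.9 and 57.4 CPM in DMSO and 61.6, 61.5 and 59.9 CPM in PdB. CAT, catalase, fell from 48.7 ± 2.6 to 39.4 ± 1.9 CPM.

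Genes of amino acid supply moved in both directions, and most aminoacyl-tRNA synthetase genes fell. Of 35 genes of amino acid supply, targets of ATF4 in part, 17 fell and 10 rose (median -0.43). These shares, 48.6% and 28.6%, lay near those of all nuclear protein-coding genes (46.6% lower and 32.4% higher). The transaminase GOT1 fell from 63.1 ± 3.9 to 19.3 ± 2.7 CPM and the serine enzyme PSAT1 from 58.3 ± 0.56 to 43.3 ± 0.56 CPM. SLC7A11, the cystine carrier, rose from 40.7 ± 5.5 to 97.4 ± 2.7 CPM, and CEBPB, a transcription factor gene without introns, from 24.6 ± 2.7 to 111 ± 8.0 CPM. CHAC1 was not called, with 2.49, 2.58 and 2.56 CPM in DMSO and 2.46, 1.44 and 1.71 CPM in PdB. ASNS, asparagine synthetase, had a log2 change of -0.30 ± 0.11 (edgeR adjusted p = 0.022), but it was not called with RLE factors (-0.20) or in 7 other settings. Of 23 aminoacyl-tRNA synthetases and their scaffold proteins, 19 fell and 4 rose (median -0.58). CARS1 and FARSA, which charge cysteine and phenylalanine tRNAs, fell from 78.5 ± 3.6 to 30.1 ± 1.4 CPM and from 176 ± 12.6 to 51 ± 3.4 CPM, whereas the scaffold AIMP1 rose from 79.3 ± 3.3 to 153 ± 5.9 CPM. Translation factors were divided, with 22 of 45 rising and 21 falling (median -0.046, 0.050 with RLE factors). EIF4E, the cap-binding protein, rose from 81.7 ± 1.8 to 251 ± 20.7 CPM, and EIF2B5, the catalytic subunit of the exchange factor of eIF2, fell from 82.8 ± 2.0 to 39 ± 4.6 CPM.

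Large assemblies held members in both directions. Of 77 mitochondrial ribosomal genes, 38 rose and 24 fell (median 0.13, -0.067 with library totals), with MRPL44 rising from 20.4 ± 1.7 to 89.6 ± 5.0 CPM and MRPL39 falling from 18.3 ± 0.53 to 3.30 ± 0.43 CPM. Of 55 genes of ribosome biogenesis, 28 rose and 22 fell (median 0.16, -0.038 with library totals). UTP3, a processome factor, had 39.9, 38 and 40.9 CPM in DMSO and 374, 352 and 316 CPM in PdB. UTP18, of the same particle, had 91.8, 101 and 96 CPM in DMSO and 24.2, 27.3 and 24.9 CPM in PdB. Within that single particle the direction was therefore not shared. Of 42 proteasome genes, 20 rose and 12 fell (median 0.10, -0.095 with library totals), with the lid subunit PSMD12 at 1.12 ± 0.05 and the assembly chaperone PSMG1 at -2.07 ± 0.083. Of 38 autophagy genes, 13 rose and 17 fell (median -0.14, 0.0052 with upper-quartile factors). The shares, 34.2% and 44.7%, lay near those of all nuclear protein-coding genes (32.4% higher and 46.6% lower). ATG14, which starts the autophagosome, rose from 20.4 ± 0.84 to 79.2 ± 5.4 CPM and MAP1LC3B, which coats it, from 43.5 ± 2.6 to 143 ± 2.8 CPM. SQSTM1, a cargo receptor, was not called (257 ± 24.2 to 234 ± 13 CPM). Of 38 nucleoporins and lamins, 25 fell and 6 rose (median -0.64), with the basket protein NUP153 rising from 222 ± 2.0 to 621 ± 29.7 CPM and the ring protein NUP155 falling from 161 ± 3.2 to 38.8 ± 3.1 CPM.

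Most genes of EGF receptor ligands and receptor tyrosine kinases fell, and most MAP kinase feedback genes rose. Of 34 EGF receptor ligands and receptor tyrosine kinases, 21 fell and 6 rose (median -0.88). EGFR (ENSG00000146648.20, chromosome 7, 55019021 to 55211628, forward strand) had 505, 458 and 470.0 CPM in DMSO and 115, 117 and 145 CPM in PdB, a log2 change of -1.93 ± 0.075 (edgeR adjusted p = 7.0e-14). Its ligand TGFA had 91.4, 85.8 and 99 CPM in DMSO and 14, 15.3 and 16.4 CPM in PdB. The ligand AREG fell from 42.3 ± 9.0 to 9.08 ± 0.87 CPM and HBEGF from 95.5 ± 4.7 to 77.6 ± 0.86 CPM, while EREG was not called (8.89 ± 0.95 to 9.52 ± 0.81 CPM). MET, the hepatocyte growth factor receptor, fell from 334 ± 21.2 to 212 ± 18.3 CPM. DDR2, a collagen receptor, rose from 2.59 ± 0.65 to 27.7 ± 2.6 CPM. The phosphatases and Sprouty proteins that dampen MAP kinases are themselves induced by that pathway. Of 21 such feedback genes, 15 rose and 6 fell (median 1.01). SPRY2 had 58.6, 57.5 and 54.4 CPM in DMSO and 290.2, 308 and 251 CPM in PdB. DUSP6, a phosphatase of ERK, had 154, 148 and 148 CPM in DMSO and 574, 563 and 491 CPM in PdB. DUSP1 rose from 32.2 ± 1.8 to 107 ± 13.7 CPM and DUSP4 from 344 ± 18.7 to 903 ± 42.5 CPM, whereas DUSP5 fell from 73.1 ± 1.9 to 32.6 ± 0.86 CPM. RASA1, which switches RAS off, fell from 142 ± 8.0 to 14.8 ± 0.8 CPM.

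Of 31 genes of TGF-beta and BMP signalling, 19 rose and 10 fell (median 0.51). BAMBI, a decoy receptor, had 6.91, 7.09 and 8.13 CPM in DMSO and 53.4, 44.5 and 49.7 CPM in PdB. The BMP effector SMAD1 rose from 5.90 ± 0.14 to 25.7 ± 2.8 CPM and the inhibitor SMAD7 from 8.54 ± 1.3 to 13.5 ± 1.1 CPM. The TGF-beta effector SMAD3 fell from 212 ± 15.6 to 73.5 ± 5.8 CPM and the receptor BMPR2 from 89.4 ± 5.0 to 22.5 ± 1.9 CPM. The target gene ID1 fell from 114 ± 10.6 to 51.2 ± 3.6 CPM. In the Hippo pathway the kinases LATS1 and LATS2 restrain the coactivator YAP, and NF2 recruits them. NF2 had 21.6, 23.1 and 20.2 CPM in DMSO and 187, 193 and 177 CPM in PdB. LATS2 had 65.3, 63.7 and 69 CPM in DMSO and 464, 439.9 and 443 CPM in PdB. Both lay more than 6-fold above DMSO in each PdB library. STK4, the kinase upstream of LATS, fell from 125 ± 1.6 to 48.8 ± 3.4 CPM, and TEAD2, a partner of YAP on DNA, from 19.7 ± 1.8 to 7.55 ± 0.53 CPM. CCN1, a matrix protein and YAP target, rose from 1869.9 ± 112 to 6696 ± 226 CPM, and CCN2 from 516 ± 37.3 to 795 ± 49.5 CPM. The whole list of 22 genes held 9 that rose and 12 that fell (median -0.14, 0.0078 with upper-quartile factors).

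In 3 families of transcription factors and adhesion proteins most of the tested genes rose. Of 18 KLF and SP factors, 12 rose and 5 fell (median 0.64). KLF11 rose from 24.2 ± 0.086 to 116 ± 10.9 CPM, KLF5 from 34 ± 2.8 to 133 ± 20.8 CPM and KLF4 from 34.4 ± 5.2 to 60.7 ± 0.56 CPM, while KLF13 fell from 26.4 ± 2.8 to 7.83 ± 2.2 CPM. KLF6 and KLF10, which respond to growth signals, changed by -0.26 ± 0.045 and -0.53 ± 0.06. Of 17 forkhead factors, 10 rose and 5 fell (median 0.82). FOXJ3 had 54.3, 54.7 and 54.5 CPM in DMSO and 301, 291 and 283 CPM in PdB. FOXA2 rose from 28.4 ± 1.8 to 93.7 ± 12.1 CPM and FOXC1 from 17 ± 1.3 to 45.2 ± 2.7 CPM, and FOXP4 fell from 182 ± 19.3 to 84.5 ± 0.49 CPM. Of the 16 protocadherin beta genes, a cluster of adhesion genes each encoded without introns, 10 were tested, 9 rose and none fell (median 1.81), with PCDHB13 rising from 5.60 ± 0.26 to 19.9 ± 1.4 CPM. Of 32 genes of caspases, death receptors and their inhibitors, 18 fell and 9 rose (median -0.28). The executioner CASP6 fell from 19.9 ± 0.39 to 1.71 ± 0.39 CPM and the initiator CASP9 from 7.02 ± 0.97 to 1.55 ± 0.3 CPM, while the adaptor FADD rose from 74.9 ± 1.6 to 176 ± 4.9 CPM and the inhibitor CFLAR from 50.6 ± 3.5 to 69.5 ± 9.0 CPM. CASP8 was not called (21 ± 0.64 to 18.8 ± 0.95 CPM).

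Metabolic, matrix and immune lists held members in both directions. Of 26 glycolysis genes, 12 rose and 10 fell (median 0.16, -0.038 with library totals). LDHA rose from 2105 ± 18.4 to 3095 ± 21.1 CPM, and PFKFB4, which sets the level of a phosphofructokinase activator, fell from 27.7 ± 2.9 to 2.53 ± 0.74 CPM. Of 21 genes of the hypoxia response, 12 fell and 5 rose (median -0.35). HIF1AN, the hydroxylase that blunts HIF, had 87.5, 81 and 86.1 CPM in DMSO and 7.54, 8.56 and 9.55 CPM in PdB. ARNT, the partner of HIF, fell from 39.8 ± 0.86 to 8.55 ± 0.79 CPM, and VEGFA from 159 ± 7.2 to 80.4 ± 1.8 CPM, while ADM, a vasodilator peptide gene, rose from 52 ± 5.6 to 189.8 ± 16.2 CPM. Of 34 integrins, invasion proteases and their inhibitors, 18 fell and 11 rose (median -0.31). ITGA2, a collagen-binding integrin, had 144, 116 and 139 CPM in DMSO and 8.71, 12.1 and 14.8 CPM in PdB. PLAU, urokinase, fell from 372 ± 33.6 to 52.8 ± 7.4 CPM, and TIMP1, a metalloprotease inhibitor, rose from 196 ± 12.9 to 365 ± 11.2 CPM. Of 15 genes of MHC class I presentation, 6 rose and 5 fell (median 0.16, -0.041 with library totals), with B2M and HLA-B at 0.86 ± 0.054 and 0.87 ± 0.046 and their activator NLRC5 at -1.06 ± 0.1. Of 19 nucleic acid sensing genes, 11 fell and 5 rose (median -0.54). RIGI, the sensor of viral RNA, fell from 35.4 ± 2.8 to 19.1 ± 2.3 CPM, and CGAS, the DNA sensor, rose from 46.7 ± 1.7 to 85.4 ± 6.1 CPM. Of 14 genes in common use as references for expression assays, 9 rose and 5 fell. SDHA changed by -1.47 ± 0.057, TBP by 0.70 ± 0.077 and B2M as given above.

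**Figure D2:**
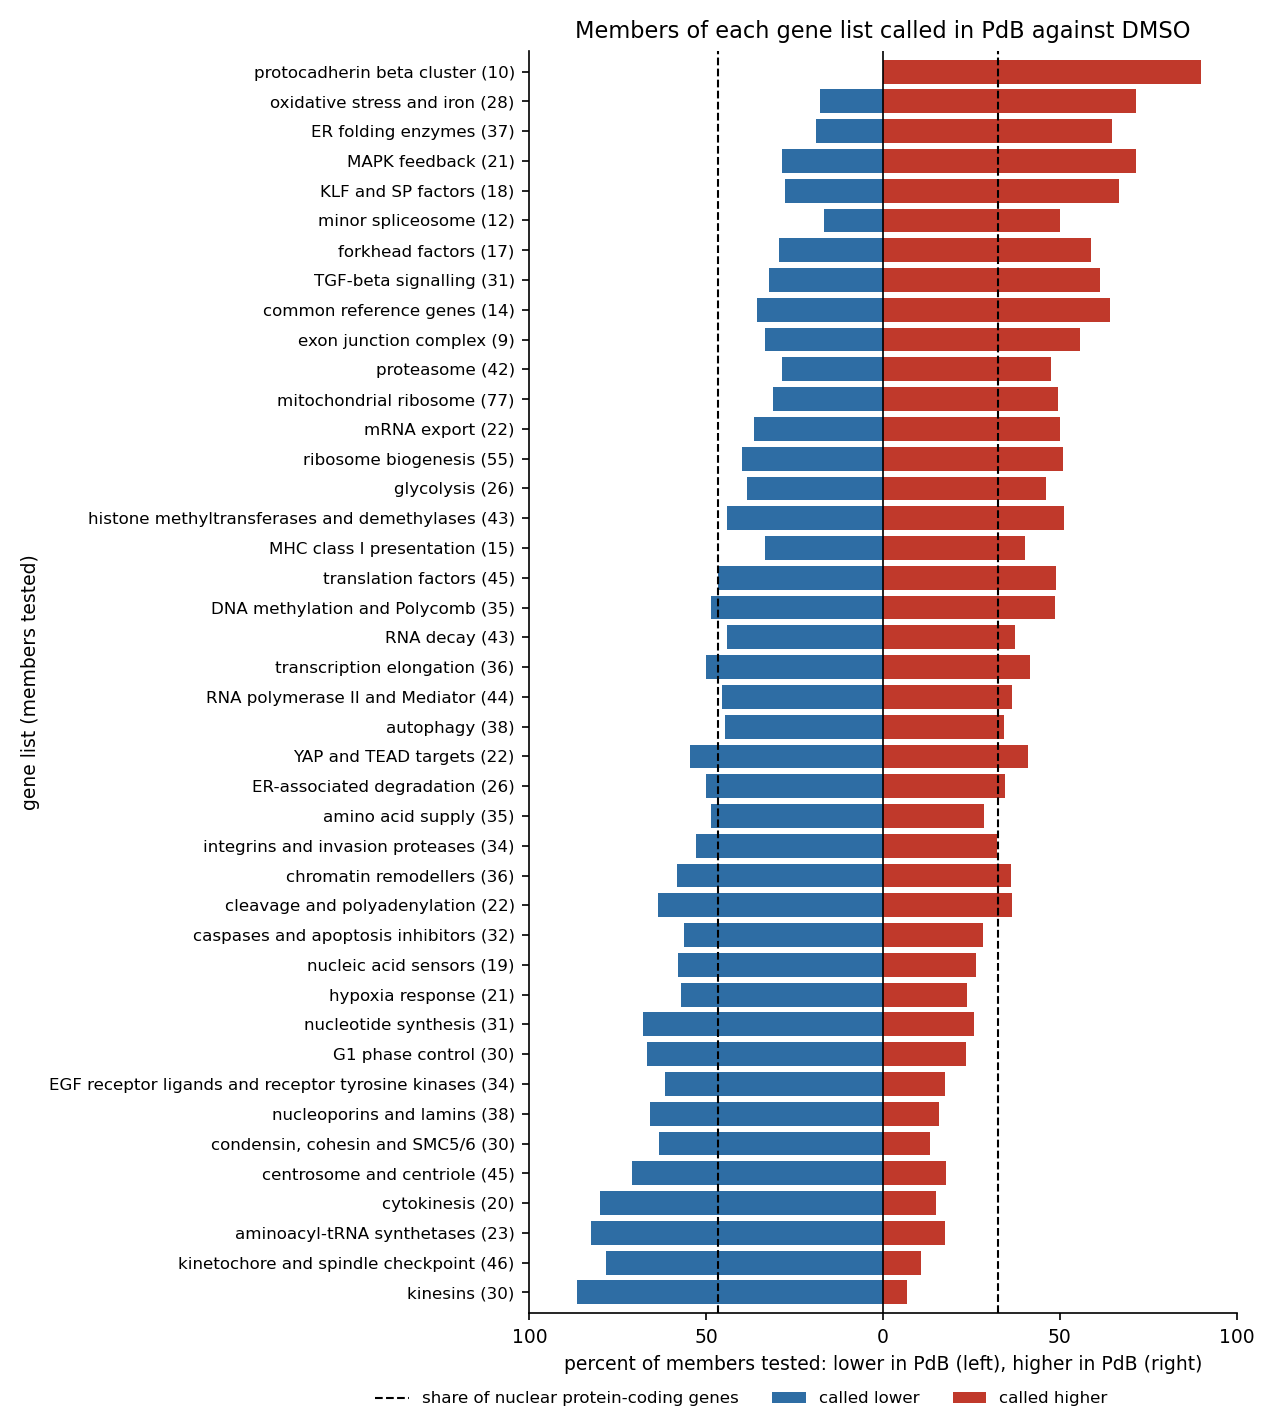
Percent of the tested members of each of 42 gene lists called lower (bars to the left) or higher (bars to the right) in PdB against DMSO, with the number tested in brackets and dashed lines at the shares of nuclear protein-coding genes (46.6% and 32.4%). Kinesins stand at the bottom with 86.7% lower, and protocadherin beta genes at the top with 90.0% higher.

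Where the counts of a library went was compared by gene class. Protein-coding genes with introns took 90.2%, 90.4% and 91.1% of the counts in DMSO and 85.9%, 86.7% and 87.7% in PdB. Protein-coding genes whose longest annotated transcript has no introns took 1.69%, 1.74% and 1.77% in DMSO and 2.68%, 2.71% and 2.63% in PdB. Mitochondrially encoded genes took 5.21% ± 0.48 of the counts in DMSO and 7.60% ± 0.87 in PdB. The share in small nucleolar RNA (snoRNA) genes was 0.0275%, 0.0281% and 0.0232% in DMSO and 0.126%, 0.129% and 0.109% in PdB. That is 4.62 times the DMSO mean, the largest ratio of the 11 shares compared. Counts were also held by fewer genes: the 100 most abundant took 18.9% ± 0.41 in DMSO and 23.1% ± 0.77 in PdB. In 10 of the 11 shares the groups did not overlap, each with a two-sided exact permutation p of 0.1 (adjusted 0.11), which is the smallest that 3 against 3 libraries can give. The exception was the antisense genes, with 0.356% ± 0.015 and 0.373% ± 0.0028 (exact permutation p = 0.2).

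**Figure D3:**
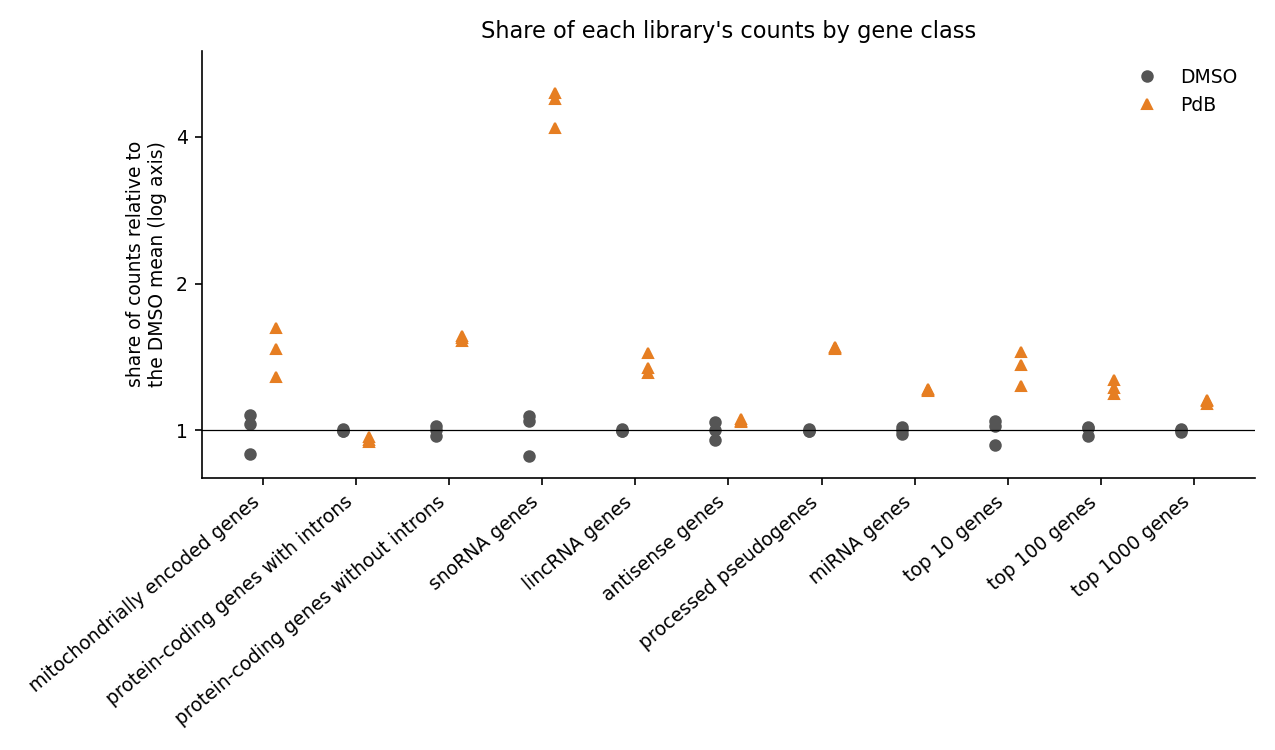
Share of each library's counts in 8 gene classes and in the 10, 100 and 1000 most abundant genes, divided by the mean share in DMSO, on a log axis. Circles are DMSO and triangles PdB libraries, 3 each. The snoRNA genes stand highest in PdB at 4.62 times the DMSO mean, and protein-coding genes with introns lie just below 1.

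snoRNAs guide chemical modification of ribosomal RNA. Most lie inside introns of other genes and are cut from the intron after it has been spliced out, and the mature RNAs carry no poly(A) tail. The libraries were made from polyadenylated RNA, so these counts do not measure the mature snoRNA pool, and they do not tell a free snoRNA from host RNA that still contains it. Of 942 snoRNA genes in the table, 258 passed the filter on low counts, and 191 of these rose and 8 fell (median log2 change 2.18). A gene near 0 in DMSO could pass that filter through PdB alone, so the genes with at least 10 counts in every DMSO library were counted apart. There 109 of 145 snoRNA genes rose and 7 fell, beside 31.3% higher and 43.8% lower over all 17779 genes with that many counts. Most of these snoRNA genes overlapped an annotated exon of a gene on the same strand: 141 of the 258 and 108 of the 145. Of the 141, 111 rose and 8 fell, and of the 108, 83 rose and 7 fell. For them, reads of the overlapping exon cannot be told apart from reads of the snoRNA. SNORD82, a box C/D snoRNA inside an intron of NCL, had 0.0293, 0.0476 and 0 CPM in DMSO and 5.50, 3.80 and 3.42 CPM in PdB. No DMSO library held more than 3 counts of SNORD82 (a level of 0.0433 to 0.0476 CPM), so no fold is given for it. Its sequence (GENCODE 29, GRCh38) is given to show what was counted, with boxes C and D in capitals.
SNORD82, chr2:231460371-231460440, reverse strand: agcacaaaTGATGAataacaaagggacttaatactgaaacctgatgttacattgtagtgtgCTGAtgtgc
Its whole length is 70 bases, short beside a host transcript.

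A small RNA gene inside an intron could be compared with its host. Of 103 snoRNA genes that lay inside an intron of a gene on the same strand, clear of annotated exons, 75 rose and none fell, while 56 of the host genes rose and 37 fell (a host with several snoRNAs counts for each). In 20 cases the snoRNA rose although its host fell. Some of the 103 entries have the same values, and each is counted. These are the entries of SNORA50A, which are among the 20, and SNORD60 beside ENSG00000281010. Most of the 103 did not reach 10 counts in every DMSO library, and genes that passed the filter through PdB had to be higher there. Of the 33 that did reach it, 24 rose and none fell, 19 hosts rose and 8 fell, and in 3 cases the snoRNA rose although its host fell. SNORD67, in CKAP5, a microtubule polymerase gene, changed by 3.33 and its host by -1.56. SCARNA22, a guide of spliceosomal RNA modification in NSD2, is typed as a scaRNA gene and lies outside these snoRNA counts. It changed by 1.81 and its host by -0.60. SNORD67 and the microRNA genes named next were picked after their values were seen. Intronic microRNA genes gave a like picture with more exceptions: 71 of 151 rose and 13 fell, while 39 of their hosts rose and 94 fell. With at least 10 counts in every DMSO library, 35 of 77 rose and 9 fell. MIR6783, in KIF18B, and MIR6807, in TRIM28, changed by 1.87 and 1.36 with hosts at 0.58 and -0.55. MicroRNA genes that overlap an annotated exon held 61 that rose and 48 that fell among 174. For those with at least 10 counts in every DMSO library the counts were 46 and 48 of 140.

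**Figure D4:**
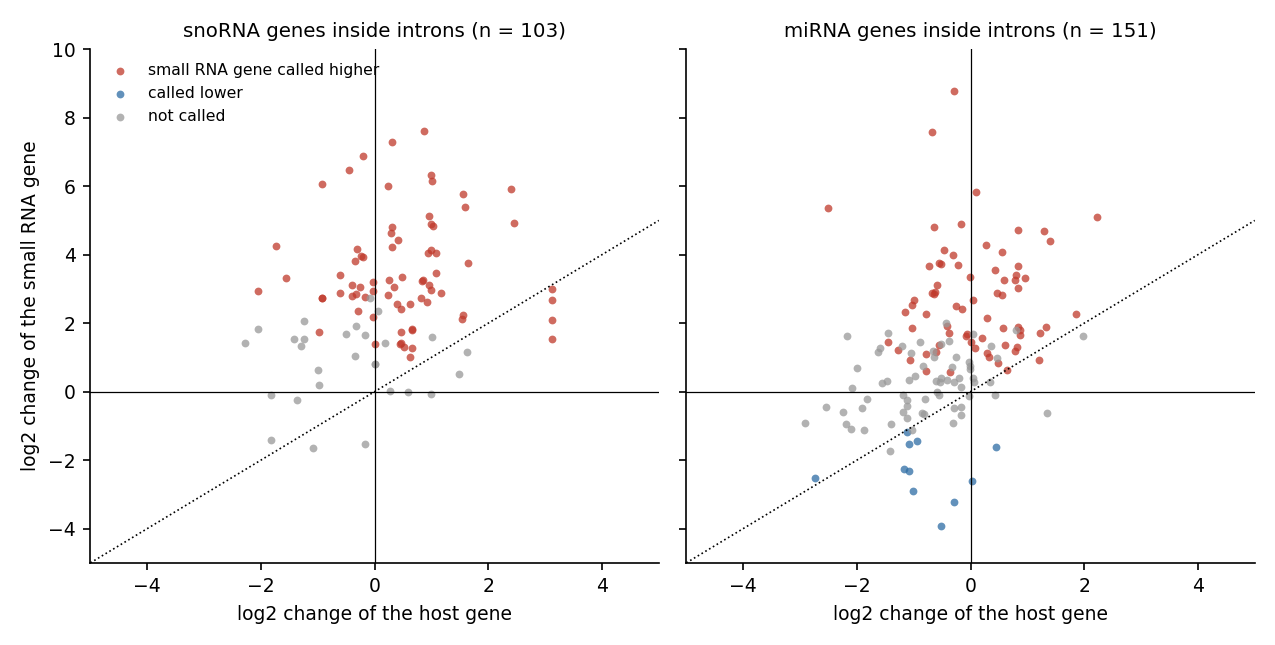
Log2 change of snoRNA genes (left, n = 103) and microRNA genes (right, n = 151) inside introns, against the log2 change of the host gene on the x axis, with a dotted line where both are equal. Colours give the call of the small RNA gene. SNORD105B (10.4), MIR186 (-5.97) and MIR574 (-5.64) lie beyond the y axis and are not shown. No called snoRNA gene lies below 0, and 20 of those called higher have a host called lower (3 among the 33 with at least 10 counts in every DMSO library).

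Gene structure went with the direction of change. Introns were counted in the longest annotated transcript of each gene. A gene that is spliced in shorter transcripts can therefore count as without introns. B2M and MED26 were among the genes so counted. The median log2 change was 0.70 in protein-coding genes without introns by this rule. The medians fell with the number of introns at every intron length examined. Genes with 1 to 2 introns had medians from 0.14 to 0.28 over 4 equal-sized classes of mean intron length. Genes with over 20 introns had a median of -0.52 where introns were shortest (a mean of at most 1349 bases) and of -1.06 where they were longest (over 6317 bases). In the group with 11 to 20 introns the same medians were -0.34 and -0.73, whereas at 3 to 5 introns they were 0.17 and 0.088. Intron length thus went with the change mainly in genes with over 10 introns. Longer transcripts were also lower, from a median of 0.11 in genes with transcripts of up to 2077 bases to -0.50 in those with over 5843 bases (the outer of 5 equal-sized classes), and these properties overlap. Over 5 classes of the level in DMSO the medians were -0.14 in the lowest, then -0.35, -0.29, -0.25 and -0.15 in the highest. The medians thus went up with the level except in the lowest class. The share that rose went up over all 5 classes, from 24.1% to 38.3%. The share that fell was 25.3% in the lowest class and 50.5% to 53.4% in the others. Genes not called numbered 1437 of 2843 in the lowest class and 297 of 2843 in the highest. How far these shares follow the number of counts was not tested. The classes were cut on the DMSO level, which is also the base of the change. Genes are not independent replicates, and gene counts do not measure splicing.

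KRAB zinc-finger genes form the largest family of human transcription factors, many of them in clusters on chromosome 19, and many act as repressors of transposons. The genes below were taken by a ZNF symbol and not by a KRAB domain, so they can include other zinc-finger genes. Of 227 genes with a ZNF symbol on chromosome 19, 158 rose and 30 fell (median 0.80). Of 238 on other chromosomes, 134 rose and 67 fell (median 0.59). The distance to other genes was also seen at matched intron number: with 3 to 5 introns, 162 of 255 ZNF genes rose and 43 fell (median 0.80), beside 1201 and 1097 of 2981 other protein-coding genes (median 0.039). With 6 to 10 introns, the medians were 0.48 and -0.22. ZNF317 (ENSG00000130803.15, chromosome 19, 9140380 to 9163424, forward strand) had 41.6, 44.9 and 44 CPM in DMSO and 418, 415 and 384 CPM in PdB. ZNF699 had 13.6, 15.8 and 13.6 CPM in DMSO and 154, 170.0 and 149.8 CPM in PdB. ZNF263, on chromosome 16, had 28.6, 29 and 27 CPM in DMSO and 272, 284 and 246 CPM in PdB. The groups of these 3 genes lay more than 8-fold apart. Some members went the other way: ZNF33B fell from 13.3 ± 1.8 to 1.65 ± 0.32 CPM, ZNF573 from 5.38 ± 0.47 to 1.16 ± 0.16 CPM and ZNF552 from 3.52 ± 0.51 to 0.520 ± 0.25 CPM. ZNF genes share repeated finger sequences, and how reads that map to several places were counted is not given in the sources used here. Chromosome 19 was the only chromosome of the 23 listed, X included, whose protein-coding genes had a median above 0 (0.20, 506 rose and 331 fell of 1104). Without ZNF genes that median was 0.055, or -0.14 with library totals. Library totals also lowered the median over all genes tested, from -0.11 to -0.31. On the other chromosomes, with their ZNF genes included, the median was -0.27 with TMM factors.

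**Figure D5:**
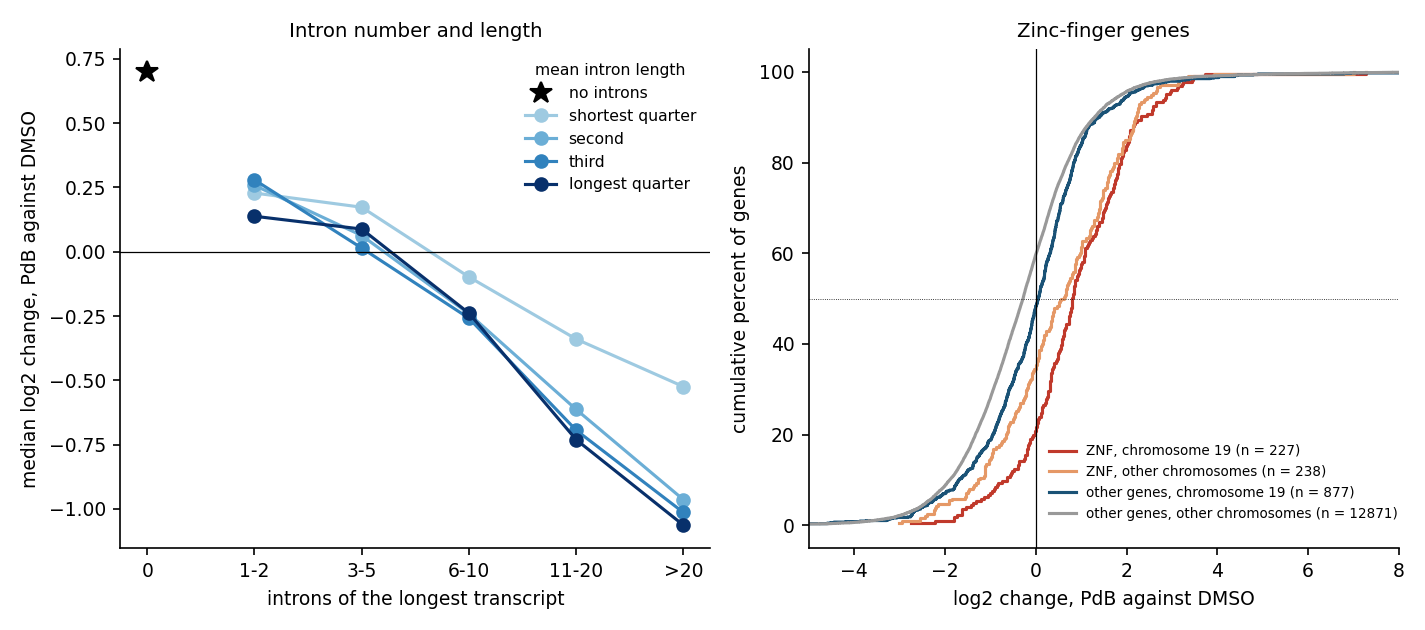
Left, median log2 change of protein-coding genes by the number of introns of the longest transcript, with a line for each of 4 equal-sized classes of mean intron length and a star for genes without introns (0.70). Right, cumulative percent of genes against log2 change for ZNF and other genes on chromosome 19 and elsewhere, where the ZNF curves lie to the right of the others (medians 0.80 and 0.59, against 0.055 and below 0).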

How the data were processed

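RNA of 9 MDA-MB-231 libraries was measured, 3 each of DMSO, PdB and recovery from it. The authors deposited whole-number read counts for 60708 genes without normalisation. The submitters' processing notes name STAR 2.7.9a, featureCounts 2.0.3, fastp 0.23.2, DESeq2 1.30.0 and Picard, with the hg38 genome. Settings, annotation release, strand use and the handling of multiply mapped or duplicate reads were not given in the sources used here, so reads of overlapping, antisense or near-identical genes cannot be told apart. The RNA was poly(A)-selected, per the labels.

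Counts were filtered with filterByExpr, scaled by TMM and fitted with edgeR 4.0.16 (R 4.3.3), all 9 libraries in a single fit, with the contrast PdB minus DMSO and a two-sided quasi-likelihood test. Calls were made at a Benjamini-Hochberg adjusted p of 0.05. The biological coefficient of variation shared by all genes was 0.111. Libraries of the same group differed by a chi-square per degree of freedom of 9.84 to 26.0, so none was taken for a copy of another. The floor of 3 counts per library covers counting error only, whereas the SD and SE values include the spread between libraries. Symbols were found for 60696 gene IDs, and 58440 matched GENCODE 29 (GRCh38), which gave gene types, coordinates, introns and hosts. Shares of counts were compared by exact permutation tests, and lists, classes and promoters were described by counts and medians without a set test. The fit was tested on counts simulated from the DMSO means with the same dispersion for all genes. Far fewer genes were changed there than were called here, so that test does not cover a shift of this size. Figures used matplotlib 3.10.9.

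The 46 gene lists, the 86 genes fixed by name and the classes were chosen with earlier results of these data known. Named genes were the 10 largest rises and falls with at least 100 CPM in the higher group and separated libraries, the 10 largest gains and losses in mean CPM, up to 2 rises and 2 falls per list and 3 per class with a mean of at least 100 counts, and the fixed genes. Symbols that are clone names were skipped outside the lists. A few genes that the rule names are not reported here. Alternatives were scaling by library totals, by RLE or by upper-quartile factors, leaving out the filter, keeping genes that averaged at least 50 counts, fitting only the 6 libraries compared, a replicate block, each library left out, DESeq2 1.42.0 and, for shares, a denominator without mitochondrial genes. Same-numbered libraries did not deviate together (r = -0.0032, 0.034 and 0.048), so numbers were not used to pair them.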

Additional observations from a re-analysis of the deposited data

How the results depend on the processing

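With TMM factors and the default filter 14599 genes were called. Across the alternatives the number called ran from 12723 when genes averaging under 50 counts were left out to 15005 without a filter, and it was 14628 with a replicate block, which was run although the numbers do not pair the libraries. Leaving out each library in turn gave 14002 to 14762 genes, 6353 to 6641 higher and 7604 to 8121 lower. Library totals gave 5579 higher and 9098 lower, and upper-quartile factors 7510 and 7060. No gene called both there and under an alternative changed direction in any alternative. For the shares of counts only the sign of PdB minus DMSO was compared, and it was the same in all alternatives. Named genes with a change near 0 changed sign as follows, and the cause was not tested. CDH1, also among them, was not near 0 but had few counts (-0.49 ± 0.76, not called, a mean of 16.7 counts). With library totals the log2 change of CCND1 was -0.0080, of CENPF -0.18, of EPCAM -0.086, of EREG -0.097, of GCLM -0.17, of MALAT1 -0.096 and of TNFRSF10B -0.14. With upper-quartile factors that of BTG2 was 0.023, of CD44 0.0014, of E2F7 0.031, of FOXM1 0.12 and of SQSTM1 0.020. FOXM1 was 0.065 with RLE factors and DESeq2, 0.092 with a mean of at least 50 counts and 0.046 with only the 6 libraries, and E2F7 was 0.0040 with a mean of at least 50 counts. Without a filter CENPF was -0.022 and GCLM -0.0049. With each library left out in turn, CDH1 ran from -1.22 to 0.86, CENPF from -0.12 to 0.085 (with -0.025 and -0.029 between), GCLM from -0.012 to 0.041 and MALAT1 from -0.41 to 0.30 (with -0.070 between). A further 37 named values lost their call and 35 gained one, all without a change of sign. In genes near the floor of 3 counts, the depth limits the size of a change. The class of scaRNA genes over an annotated exon had no gene left when genes averaging under 50 counts were dropped, so it has no value there.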
